A study of Oryza sativa with 6 samples.

Results

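The enzymes of late chlorophyll synthesis were examined in leaves of rice (Oryza sativa) seedlings that overexpress DGP1 and in their wild type. The genes were chosen by locus ID, as 8 loci named CRD1, DVR, PORA, PORB, CAO1, CAO2, YGL1 and geranylgeranyl reductase (here GGR). Of these, 7 had a row among the 19696 rows of the deposited expression table. CAO2 (Os10g0567100) had no row there and was not analysed here. DGP1-OE1, the overexpressor, gave 3 libraries, and ZH11, a japonica variety that is its wild type, gave 3 libraries. Both genotypes were sampled as leaves at 3 weeks of age after growth on diluted MS medium, a defined plant culture medium, under conditions the labels call normal. DGP1-OE1 is a single overexpressor line, and the promoter that drives its transgene is not given in the sources used here. Nothing in the labels ties a replicate to its own plant or pool. The p-values therefore cover the variation among these libraries, some of which may be technical.

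Chlorophyll is built in the plastid from a porphyrin ring into which magnesium has been inserted. In the late steps CRD1, an aerobic cyclase, closes the extra ring to give protochlorophyllide, and the divinyl reductase DVR reduces a vinyl side group. The protochlorophyllide oxidoreductases PORA and PORB then make chlorophyllide in a reaction that needs light. CAO1 and CAO2 are chlorophyllide a oxygenases and open the branch to chlorophyll b. GGR reduces the geranylgeranyl chain to the phytyl tail, and YGL1, the chlorophyll synthase, joins the tail to the ring. DGP1 is known from earlier work as a negative regulator of chlorophyll synthesis in rice glumes that acts on GOLDEN2-LIKE factors, which switch on many genes of chlorophyll synthesis and light harvesting.

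The deposited values were FPKM, fragments scaled to transcript length and library size. Levels of different genes can therefore be set side by side, but without counts the sequencing depth is unknown. The listed FPKM summed to between 720415 and 752617 in the DGP1-OE1 libraries and to between 686327 and 741259 in the ZH11 libraries. The 10 most abundant rows of the table took 16.4% to 18.7% of all FPKM in the DGP1-OE1 libraries and 13.9% to 14.9% in the ZH11 libraries, and the part of this in the results was not tested. In whole leaves, fewer cells that make chlorophyll and less of a transcript per cell cannot be told apart. The deposited IDs come without gene names, so the level of DGP1 and the leaf identity of the libraries were not checked. Among RefSeq genes of rice, 6 of the 8 gene names were found, each once, and all 6 lay on the chromosome that the locus ID gives. The names CRD1 and CAO2 were not found. A shared chromosome does not show that the locus is the same.

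Of the 7 genes, PORB was called lower in DGP1-OE1 in the main fit, though not in every fit tried. None was called higher. Differences are DGP1-OE1 minus ZH11 on the log2(FPKM + 1) scale, and a gene was called when its adjusted p was under 0.05 (limma, Benjamini-Hochberg adjustment over 18270 tested genes). Called lower were 1 of the 7 genes, against 0.197% of all tested genes, and called higher were 0 of 7, against 0.159%. Without adjustment, a p under 0.05 was reached by 4 of the 7 genes in the lower direction and by 0 in the higher direction, against 4.26% and 4.53% of all tested genes. In the same 4 genes, CRD1, PORB, CAO1 and GGR, every DGP1-OE1 library lay below every ZH11 library, which held for 7.19% of all tested genes. None of the 7 genes lay without overlap in the other direction, which 6.72% of all tested genes did. In PORA, DVR and YGL1 the groups overlapped. The median log2 difference was -0.69 over the 7 genes and -0.0096 over all tested genes. All 7 genes passed the filter on low values, PORA only just, with 3 of 6 libraries at or above 1 FPKM.

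**Figure D1:**
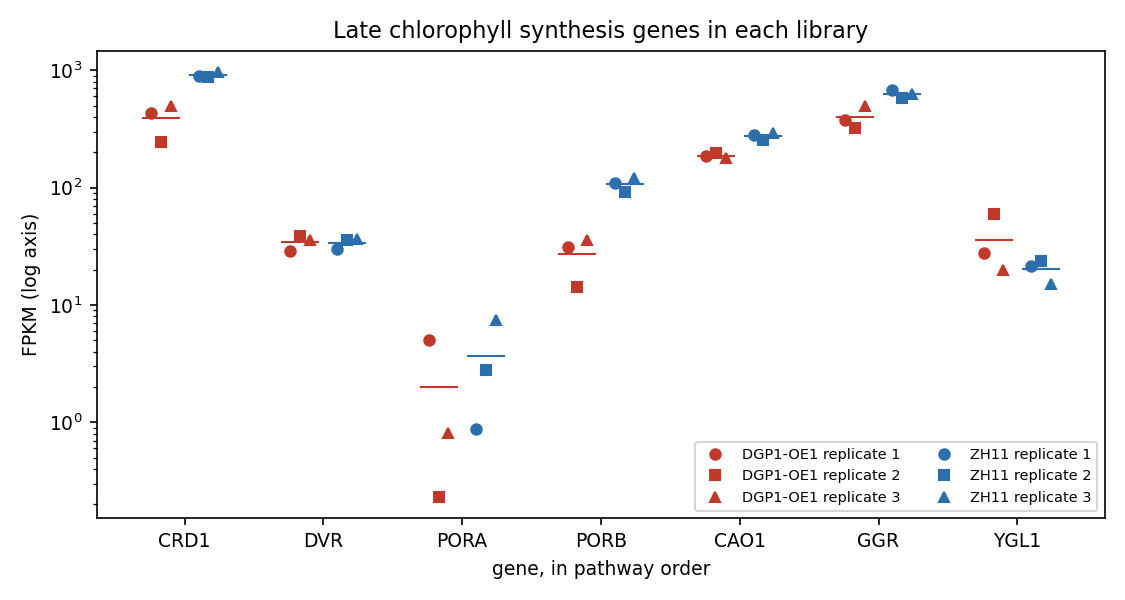
FPKM of the 7 genes in each library on a log axis, in pathway order, with DGP1-OE1 in red and ZH11 in blue. Points are libraries and short lines are group means. The groups lie apart in CRD1, PORB, CAO1 and GGR, and overlap in DVR, PORA and YGL1.

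CRD1 (Os01g0279100, chromosome 1) was the most abundant of these genes in every ZH11 library and in DGP1-OE1 replicates 1 and 3. In DGP1-OE1 replicates 1, 2 and 3 it was listed at 436, 244 and 500.2 FPKM, against 902, 870 and 967 FPKM in ZH11 replicates 1, 2 and 3. The highest DGP1-OE1 library stayed well below the lowest ZH11 library, and the ZH11 libraries lay close together. The mean was 394 ± 133 FPKM in DGP1-OE1 libraries and 913 ± 49.6 FPKM in ZH11 libraries (SD, n = 3 each), 43.1% of the wild-type level. The log2 difference was -1.27 with an SE of 0.27 and a 95% interval of -1.87 to -0.68. It was the 104th smallest p of all tested genes (unadjusted p = 0.00061), and after adjustment CRD1 was not called (limma, adjusted p = 0.107). With the replicate number as a block it was called (limma, adjusted p = 0.0134). That fit called CRD1 and PORB lower, 2 of the 7 genes, against 0.761% of all tested genes.

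DVR (Os03g0351200, chromosome 3), the next enzyme, stood at nearly the same level in both genotypes. It was listed at 28.6, 38.5 and 36.0 FPKM in DGP1-OE1 and at 29.8, 35.7 and 36.2 FPKM in ZH11. All ZH11 libraries lay inside the range of the DGP1-OE1 libraries. The means were 34.4 ± 5.11 FPKM in DGP1-OE1 libraries and 33.9 ± 3.56 FPKM in ZH11 libraries (SD, n = 3 each), and the log2 difference was 0.015 with a 95% interval of -0.45 to 0.47 (limma, adjusted p = 0.991). Differences within that interval could not be told from 0 with these libraries.

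The oxidoreductases catalyse the same step, and in these leaves PORB was the more abundant copy in every library. PORB (Os10g0496900, chromosome 10), the form best known from green leaves, stood in DGP1-OE1 replicates 1, 2 and 3 at 31.2, 14.2 and 35.5 FPKM, against 111, 91.4 and 122 FPKM in ZH11 replicates 1, 2 and 3. The highest DGP1-OE1 library reached 38.9% of the lowest ZH11 library. The mean was 27.0 ± 11.3 FPKM in DGP1-OE1 libraries and 108 ± 15.5 FPKM in ZH11 libraries (SD, n = 3 each), 25.0% of the wild-type level. The log2 difference was -2.05 with an SE of 0.31 and a 95% interval of -2.72 to -1.37 (limma, adjusted p = 0.0153). Among all tested genes it was the 51st lowest difference. The call was lost with median-of-ratios scaling (limma, adjusted p = 0.0509), without an intensity trend (0.0948), and without DGP1-OE1 replicate 1 (0.051), ZH11 replicate 1 (0.116) or ZH11 replicate 3 (0.0987). The log2 difference was -1.66 or lower in each of these fits and in all others tried. Fits that changed only the filter, the intensity trend, the error estimate or the replicate block could not move it.

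PORA (Os04g0678700, chromosome 4), the form best known from dark-grown seedlings, was listed near the bottom of the range. It stood at 5.01, 0.233 and 0.812 FPKM in DGP1-OE1 and at 0.875, 2.79 and 7.46 FPKM in ZH11. The libraries of each genotype differed many-fold among themselves, and the groups overlapped over most of their range. The means were 2.02 ± 2.60 FPKM in DGP1-OE1 libraries and 3.71 ± 3.39 FPKM in ZH11 libraries (SD, n = 3 each), with a log2 difference of -0.72 and a 95% interval of -2.16 to 0.71 (limma, adjusted p = 0.83). Single libraries decided the ratio of the means, DGP1-OE1 over ZH11, which was 0.544 over all libraries, 0.141 without DGP1-OE1 replicate 1 and 1.10 without ZH11 replicate 3.

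The balance of PORA against PORB was taken within each library, as a ratio of FPKM that library scaling leaves as it is. PORA reached 16.1%, 1.64% and 2.28% of the PORB level in DGP1-OE1 replicates 1, 2 and 3, against 0.791%, 3.06% and 6.12% in ZH11 replicates 1, 2 and 3. The highest value came from DGP1-OE1 and the lowest from ZH11, but the other values interleaved. On the log2(FPKM + 1) scale, where the pseudocount lets scaling move it, the ratio of PORA to PORB averaged -3.46 ± 0.97 in DGP1-OE1 libraries and -4.79 ± 1.03 in ZH11 libraries (SD, n = 3 each). The difference of 1.33 was not significant (exact permutation test, two-sided p = 0.2, where 3 against 3 libraries allow no p below 0.1). It depended on the pseudocount, and was 0.83 with a pseudocount of 0.1 and 0.67 with none. These values assume that reads were assigned to the right copy, which the table does not show for related genes.

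CAO1 (Os10g0567400, chromosome 10), the oxygenase of the chlorophyll b branch, differed little among libraries of the same genotype. It was listed at 187, 196 and 180 FPKM in DGP1-OE1 and at 280, 253 and 290 FPKM in ZH11. Both groups were tight and did not overlap. The means were 188 ± 8.33 FPKM in DGP1-OE1 libraries and 274 ± 18.9 FPKM in ZH11 libraries (SD, n = 3 each), 68.5% of the wild-type level. The log2 difference was -0.54 with a 95% interval of -0.93 to -0.15 and an unadjusted p of 0.0111, and CAO1 was not called after adjustment (limma, adjusted p = 0.37). Whether reads of CAO2, its related copy on the same chromosome, were counted with CAO1 is not given in the sources used here.

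GGR (Os02g0744900, chromosome 2), which supplies the phytyl tail, was the second most abundant of these genes in ZH11. It was listed at 377, 325 and 492 FPKM in DGP1-OE1 and at 680, 585 and 634 FPKM in ZH11. The highest DGP1-OE1 library lay below the lowest ZH11 library. The means were 398 ± 85.6 FPKM in DGP1-OE1 libraries and 633 ± 47.7 FPKM in ZH11 libraries (SD, n = 3 each), 62.9% of the wild-type level. The log2 difference was -0.69 with a 95% interval of -1.16 to -0.21 and an unadjusted p of 0.00868, and GGR was not called (limma, adjusted p = 0.338).

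YGL1 (Os05g0349700, chromosome 5), which uses that tail in the last step, had the higher mean in DGP1-OE1. It was listed at 27.9, 59.1 and 19.9 FPKM in DGP1-OE1 and at 21.7, 23.7 and 15.1 FPKM in ZH11. DGP1-OE1 replicate 2 stood far above the rest, and DGP1-OE1 replicate 3 lay inside the ZH11 range. The means were 35.6 ± 20.7 FPKM in DGP1-OE1 libraries and 20.1 ± 4.49 FPKM in ZH11 libraries (SD, n = 3 each). The log2 difference was 0.67 with a 95% interval of -0.11 to 1.45 (limma, adjusted p = 0.638), and 0.24 without DGP1-OE1 replicate 2.

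**Figure D2:**
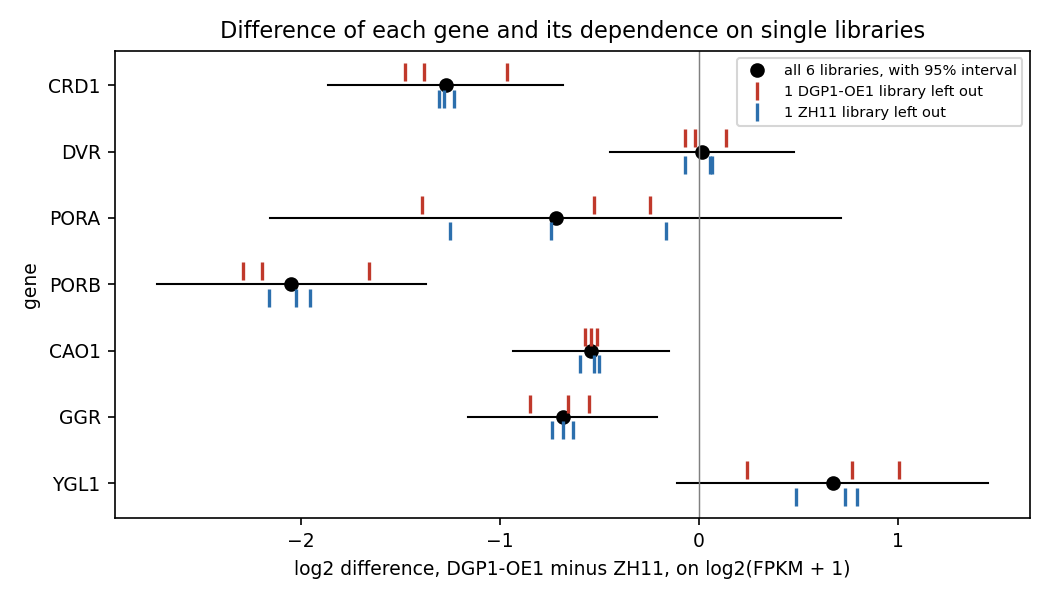
Log2 difference of each gene, DGP1-OE1 minus ZH11, with its 95% interval (black) and the values when 1 DGP1-OE1 library (red ticks) or 1 ZH11 library (blue ticks) is left out. The intervals of CRD1, PORB, CAO1 and GGR lie below 0, and PORB has the lowest value at -2.05.

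On the plot of difference against level, CRD1 and PORB lay at the lower edge of the tested genes. CRD1 was the 178th lowest difference of all tested genes, within the lowest 0.974%, and PORB was within the lowest 0.279%. GGR lay within the lowest 5.75% and CAO1 within the lowest 9.61%. CRD1, CAO1 and GGR were highly expressed genes in both genotypes. In DGP1-OE1 the level of CRD1 exceeded that of 98.0% to 99.1% of all rows, against 99.5% to 99.6% in ZH11. For PORB the share was 64.0% to 85.6% in DGP1-OE1 and 94.2% to 96.0% in ZH11.

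**Figure D3:**
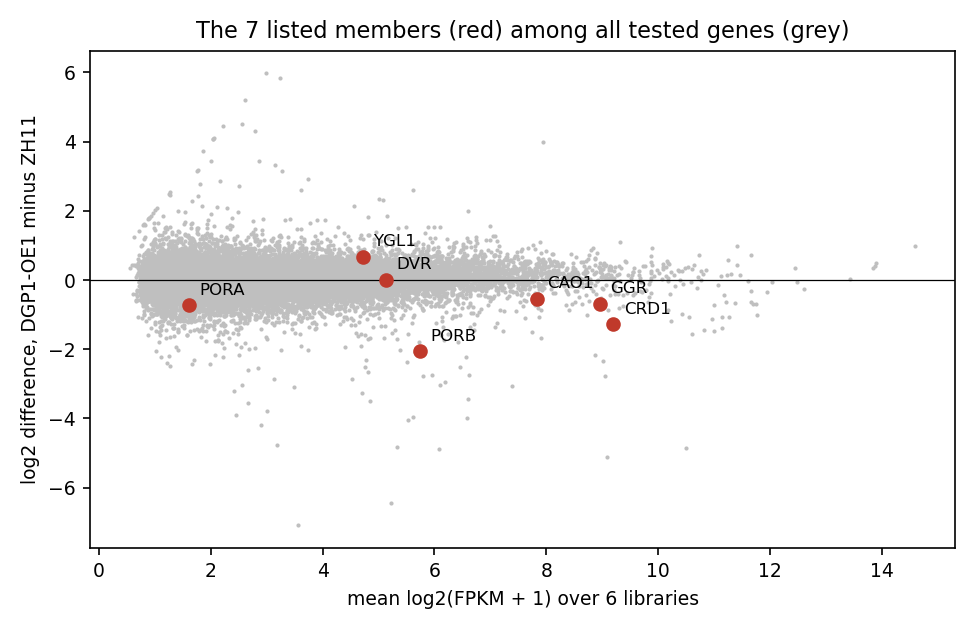
Log2 difference, DGP1-OE1 minus ZH11, against mean log2(FPKM + 1) over 6 libraries for all 18270 tested genes (grey) and the 7 genes (red). PORB and CRD1 lie at the lower edge of the cloud, while DVR lies on the zero line.

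The order of the genes by level was the same in all 3 ZH11 libraries, and ran CRD1, GGR, CAO1, PORB, DVR, YGL1, PORA. CRD1 and GGR, and every other pair of neighbours in that order, did not overlap in ZH11. DGP1-OE1 replicate 1 kept this order. In DGP1-OE1 replicate 2, GGR exceeded CRD1, and YGL1 and DVR both exceeded PORB. In DGP1-OE1 replicate 3, DVR exceeded PORB by a narrow margin. In DGP1-OE1 the ranges of CRD1 and GGR overlapped, as did those of PORB, DVR and YGL1.

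Ratios between genes of the same library, chosen after the levels were seen and not tested, showed unequal differences along the pathway. CRD1 stood at 1.16, 0.751 and 1.02 times the level of GGR in DGP1-OE1 replicates 1, 2 and 3, against 1.33, 1.49 and 1.53 times in ZH11 replicates 1, 2 and 3. PORB stood at 0.0715, 0.0581 and 0.0711 times the level of CRD1 in DGP1-OE1, against 0.123, 0.105 and 0.126 times in ZH11. CRD1 stood at 15.2, 6.36 and 13.9 times the level of DVR in DGP1-OE1, against 30.3, 24.4 and 26.7 times in ZH11. In all 3 ratios the groups did not overlap, but the share of other gene pairs for which this holds was not computed. With DVR nearly level, the ratio of CRD1 to DVR mostly repeats the difference of CRD1. The ratio of YGL1 to GGR, which act on the same tail, was 0.074, 0.182 and 0.0404 in DGP1-OE1 and 0.0319, 0.0404 and 0.0238 in ZH11, with DGP1-OE1 replicate 3 level with ZH11 replicate 2.

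The 7 genes summed to 1093, 878 and 1265 FPKM in DGP1-OE1 replicates 1, 2 and 3, against 2024, 1861 and 2071 FPKM in ZH11 replicates 1, 2 and 3. The DGP1-OE1 sum averaged 0.543 times that of ZH11. This sum was carried by CRD1, GGR and CAO1. CRD1 made up 39.9%, 27.8% and 39.6% of the sum in DGP1-OE1, against 44.5%, 46.7% and 46.7% in ZH11. PORB made up 2.85%, 1.62% and 2.81% in DGP1-OE1, against 5.46%, 4.91% and 5.89% in ZH11.

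The DGP1-OE1 libraries varied more than the ZH11 libraries for most of these genes. The coefficient of variation was larger in DGP1-OE1 for 6 of the 7 genes, and for 48.8% of all tested genes listed above 0 in both groups. It was 33.8% in DGP1-OE1 and 5.43% in ZH11 for CRD1, and 41.8% in DGP1-OE1 and 14.3% in ZH11 for PORB. CAO1 was the exception, with 4.43% in DGP1-OE1 and 6.91% in ZH11. DGP1-OE1 replicate 2 was an extreme of its group for every gene. It was the lowest DGP1-OE1 library for CRD1, PORA, PORB and GGR, and the highest for DVR, CAO1 and YGL1. In a group of 3 libraries all but the middle one are extremes, and the share over all tested genes was not computed. Without DGP1-OE1 replicate 2 the mean of CRD1 in DGP1-OE1 was 0.513 times that in ZH11 and the mean of PORB 0.309 times, and PORB was called (limma, adjusted p = 0.00497) while CRD1 was not (limma, adjusted p = 0.105).

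**Figure D4:**
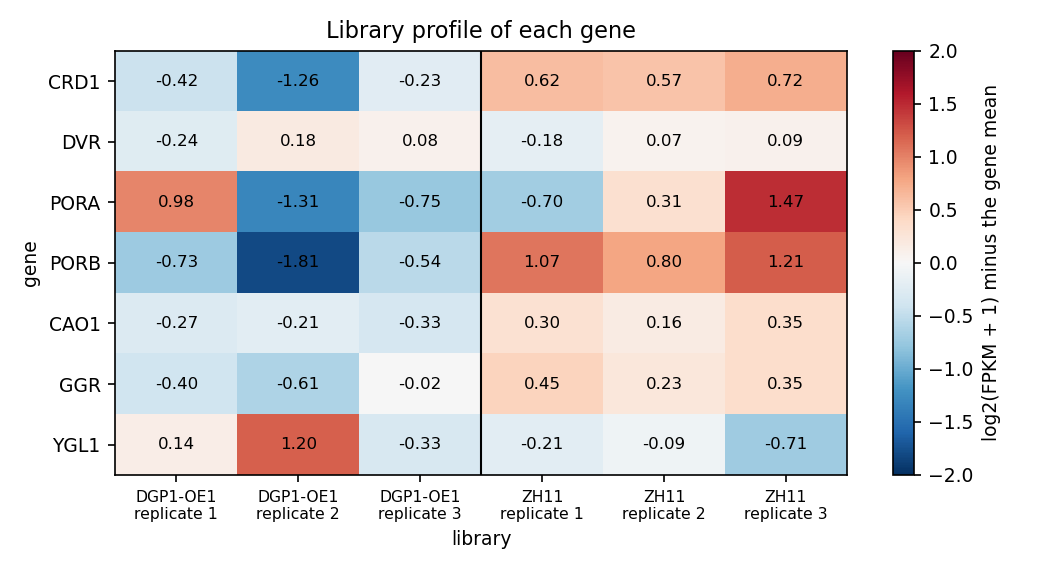
Log2(FPKM + 1) of each gene minus its mean over the 6 libraries, with DGP1-OE1 libraries left of the line and ZH11 libraries right of it. DGP1-OE1 replicate 2 holds the lowest value of CRD1 (-1.26) and PORB (-1.81) and the highest of YGL1 (1.20).

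The profile of each gene, as log2(FPKM + 1) minus its own mean over the 6 libraries, was set against the mean profile of the 7 genes. CAO1 and GGR were closest to it, with root-mean-square differences of 0.18 and 0.20 log2 units. CRD1 stood at 0.39, DVR at 0.42, PORB at 0.77 and PORA at 0.79, and YGL1 was farthest, at 0.90. Each of the 7 genes is part of the mean profile, which lowers its own distance. Among all tested genes other than these 7 the median was 0.51, below the values of PORB, PORA and YGL1. This distance grows with the size of a change as well as with a different shape. PORB, like the mean profile, lay below its mean in every DGP1-OE1 library and above it in every ZH11 library. It ran from -1.81 to 1.21, against -0.55 to 0.50 for the mean profile. PORA and YGL1 did not keep to those signs. The closest of the other genes were Os12g0189400 at 0.036 and Os06g0725300 at 0.064. The files do not pair these IDs with names. In DGP1-OE1 replicates 1, 2 and 3, Os12g0189400 was listed at 2163, 1622 and 1995 FPKM, against 2608, 2852 and 3431 FPKM in ZH11 replicates 1, 2 and 3. Os06g0725300 was listed at 10.9, 7.29 and 8.69 FPKM in DGP1-OE1 and at 12.7, 15.3 and 17.0 FPKM in ZH11. Both were chosen for this likeness, so their differences are a description only.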

How the data were processed

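The authors deposited FPKM for 6 leaf RNA-seq libraries, and HISAT2 2.0, StringTie 1.3.0 and Bowtie 0.12.2 are named, with no role, in the submitters' processing notes. These notes also name a mouse genome build, while a rice build or annotation is not given in the sources used here. FPKM depends on the transcript models and on the other genes of a library. Columns headed DGP1-OE with a number were taken as the DGP1-OE1 replicate of that number. Genes with at least 1 FPKM in at least 3 libraries were tested (18270), as log2(FPKM + 1) without further scaling, in limma 3.58.1 (R 4.3.3) with moderation by empirical Bayes and a trend on intensity. Tests were two-sided. The limma p-values were adjusted over all tested genes by Benjamini-Hochberg, with a threshold of 0.05, and the exact permutation test of the PORA to PORB ratio is a single p without adjustment. The fit was run on data simulated from its own error estimates, with changes of 2 log2 units put into 200 well-expressed genes. That run does not show how the fit performs on smaller changes, on low values or on the replicate structure of these libraries. The genes and lists were chosen with earlier results of these data known. The rule for named genes took all 8 loci and the 2 loci most like their mean profile. Marker and upstream pathway lists were not used, because 0 table IDs matched the RefSeq gene table. For the same reason no sequence is shown. Other settings comprised the pseudocount, filters, scalings, moderation, a replicate block and leaving out each library.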

Additional observations from a re-analysis of the deposited data

How the results depend on the processing

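The number of genes called lower, 1 over all libraries, was 0 with median-of-ratios scaling and 0 without an intensity trend, 2 (PORB and CRD1) with the replicate number as a block, and 0 to 1 when each library was left out. The number called higher was 0 in every fit. Of the 15 other fits, CRD1, PORB, CAO1, GGR and YGL1 kept their direction in all 15, and PORA in the 14 in which it was tested, since the filter at 5 FPKM removed it. The filters, the moderation, the intensity trend and the replicate block leave a log2 difference as it is. Only the other fits could therefore have changed a direction. The log2 difference of DVR, near 0, was -0.027 with equal totals, -0.035 with quantile normalization, and -0.073 to 0.14 when each library was left out, with the negative values -0.070, -0.023 and -0.073 without DGP1-OE1 replicate 2, DGP1-OE1 replicate 3 and ZH11 replicate 1. The log2 difference of PORB ran from -2.29 to -1.66 when each library was left out. The PORA to PORB difference of 1.33 was 0.83 with a pseudocount of 0.1 (exact permutation test, two-sided p = 0.6). With no pseudocount (chosen after seeing the data) it was 0.67 (exact permutation test, two-sided p = 0.7). It was 1.33 with the replicate block and 0.77 to 1.79 without single libraries. Changing the pseudocount alters only the constant added to each FPKM, which weighs most on low values such as those of PORA. The cause of the other changes was not tested. The planned ratio of CAO1 to CAO2 could not be computed. Libraries that share a number deviated from their group means with correlations across genes of 0.016 (replicate 1), 0.38 (replicate 2) and 0.14 (replicate 3). For DGP1-OE1 and ZH11 libraries of unlike number the correlations ran from -0.28 to 0.21, so only replicate 2 lay above that range. The labels do not pair the numbers, so libraries of the same number were not taken as pairs. Over all tested genes the block gave 139 lower calls instead of 36 and 130 higher calls instead of 29. With depth unknown, the precision of low values such as those of PORA cannot be stated.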
